A study of Oryctolagus cuniculus with 8 samples.

Results

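The genes described here are 4 genes of the acid and protease machinery of the gastric gland, ATP4A, ATP4B, PGC and CTSE, followed across cultured rabbit cells. Their probes were all non-control probes whose RefSeq accession belongs to one of the genes, which gave 8 probes among the 43603 different probes of the array and 4 genes among the 680 to which a symbol could be given. ATP4A, PGC and CTSE had 1 probe each and ATP4B had 5. The expression of RNA was measured on 8 one-colour Agilent arrays, 1 array for each sample, with total RNA labelled with Cy3. All samples came from Dutch rabbits. Late passage iPS cells were the line iPS-L1, made from liver cells, at passage 23 and the line iPS-S1, made from stomach cells, at passage 22. Early passage iPS cells were iPS-L1 at passage 7 and iPS-S1 at passage 6. ES cells were the lines rdES4 and rdES2-1, and somatic cells were 1 culture of liver cells and 1 of stomach cells. Induced pluripotent stem (iPS) cells are body cells reprogrammed to a state like that of embryonic stem (ES) cells. The reprogramming factors are not stated, and each iPS origin is 1 line. The media differed, stem cell medium for the pluripotent cells and somatic cell medium for the others, so medium and cell type cannot be told apart in any comparison with somatic cells. Nothing in the labels says that the samples of a group came from separate animals, so p-values measure only the spread between these samples, which may be technical.

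In the stomach, parietal cells of the gastric gland secrete acid through the H,K-ATPase, a P-type ion pump that exchanges cytoplasmic protons for potassium ions. ATP4A is its catalytic alpha subunit, which carries the ion and ATP sites, and ATP4B is the glycosylated beta subunit needed for folding and delivery of the pump to the membrane. PGC encodes progastricsin (pepsinogen C), an inactive aspartic protease precursor of gastric chief and mucous neck cells that acid converts to its active form. CTSE encodes cathepsin E, an aspartic protease that stays inside the cell, in endosomes, and is made by gastric surface epithelium and by antigen-presenting cells. The samples were cultures, not stomach tissue.

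A signal below is the processed brightness of a spot after background subtraction, on a linear scale, given with the error that the scanner software assigned to it. A level is the log2 signal minus the log2 75th percentile of the signals on that array, so that 0 marks this percentile. Levels of one probe were compared between samples, and no probe was set against another. The 75th percentile lay between 273.8 and 341.0 on the pluripotent arrays, against 163.4 or less on the somatic arrays, where the lowest was 154.4. The lowest signal marked as well above background on an array lay between 6.53 and 8.28 on pluripotent arrays and was 6.16 and 7.10 on somatic ones. Between 62.4% and 64.7% of probes were well above background on pluripotent arrays, against 57.8% and 58.4% on somatic arrays. The 153 negative control probes had median signals between 1.47 and 1.85. The labelled pluripotent state was checked with POU5F1, the pluripotency factor OCT4, which was higher by 10.89 ± 0.19 (SE) on the log2 scale in iPS than in somatic cells. The liver label could not be borne out by ALB (albumin) or APOA1 (apolipoprotein A1), whose probes were not well above background on any of the 8 arrays, the liver cells included. Of the 5 other hepatocyte genes with a tested probe, APOE, HP, HPX and RBP4 gave a higher signal in stomach than in liver cells. For HP these signals were 692.3 and 28.3. Only TF was higher in liver cells, with 53.2 against 21.8 in stomach cells. Of a list of 19 genes of other gastric gland cells, the 2 with a named probe, CLPS and PNLIP, were not well above background on any array either.

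The catalytic pump subunit ATP4A was dim but above background on all 6 pluripotent arrays. Its signal was 27.4 ± 3.23 in the liver line and 17.9 ± 2.32 in the stomach line of late iPS cells, and 27.9 ± 3.25 in the liver line and 20.1 ± 2.58 in the stomach line of early iPS cells. In ES cells it was 21.2 ± 2.53 in rdES4 and 22.1 ± 2.64 in rdES2-1. In somatic cells it was 6.46 ± 1.67 in liver cells, a spot without the mark for being well above background, and 7.31 ± 1.55 in stomach cells, a spot with that mark. The pluripotent signals thus did not overlap the somatic ones, but signals were not scaled between arrays. Without scaling, the median of all tested probes was itself higher in iPS than in somatic cells, by a log2 difference of 1.03. As levels, the ranges were also apart, at -4.05 to -3.61 on pluripotent arrays and -4.66 to -4.40 on somatic ones. How many other probes were likewise apart was not counted. The stomach cells gave a signal only just over the lowest one counted as above background on their array. The level of ATP4A averaged -3.81 ± 0.26 in iPS lines, against -4.53 ± 0.19 in somatic cells (SD, n = 2 lines and 2 cultures). The difference of 0.73 ± 0.19 (SE, 95% interval 0.24 to 1.21), a 1.65-fold higher level in iPS cells, had a limma adjusted p of 0.0204. In ES cells the level averaged -3.75 ± 0.084 (SD, n = 2), higher than in somatic cells by 0.78 ± 0.19 (SE, 95% interval 0.30 to 1.26), or 1.71-fold, with a limma adjusted p of 0.0169. In bulk RNA such as this, fewer cells of a type and less RNA per cell cannot be told apart. Raising the liver array to the lowest marked signal of that array gave differences of 0.66 for iPS and 0.71 for ES cells. ATP4A entered the tests only through the pluripotent groups, since 1 of the 2 somatic arrays was above background, so it was tested because of the groups in which it was high.

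These ATP4A differences were ordinary in size among all probes. Of the 28855 probes tested, 66.6% differed between iPS and somatic cells, 34.2% being higher in iPS cells and 32.4% lower, and 37.9% of the probes had a smaller difference than ATP4A. Between ES and somatic cells, 63.9% differed, with 34.2% higher and 29.7% lower in ES cells, and 43.0% had a smaller difference than ATP4A. Of the 3 tested genes, 1 was higher and 1 lower in iPS than in somatic cells, and 2 were higher and 1 lower in ES than in somatic cells, counts that do not set them apart from the array as a whole and in which ATP4A and CTSE were tested only through the groups where they were high.

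The direction of ATP4A turned under one of the other ways of processing. With normexp background correction at an offset of 50 followed by percentile scaling, ATP4A was lower in iPS than in somatic cells by -0.45 (limma adjusted p = 0.00731) and in ES than in somatic cells by -0.36 (limma adjusted p = 0.0215). Under that setting the median of all tested probes moved too, to -0.40 for iPS minus somatic, against 0.015 with the scaling used here, and to -0.33 for ES minus somatic, against 0.066, so ATP4A lay close to the median probe. With the same correction and no scaling it was higher by 0.35 in iPS cells (limma adjusted p = 0.0254) and by 0.32 in ES cells (limma adjusted p = 0.0346). Over 17 alternative settings the iPS minus somatic difference lay between -0.45 and 1.74, with 14 of them past the threshold and adjusted p from 0.000967 to 0.613, and over 16 settings the ES minus somatic difference lay between -0.36 and 1.65, with 11 past it and adjusted p from 0.00128 to 0.355. Without the liver cells the iPS minus somatic difference was 0.59 (limma adjusted p = 0.0654) and the ES minus somatic difference was 0.65 (limma adjusted p = 0.0544). The ES minus somatic call was also lost without rdES4 (0.72, limma adjusted p = 0.0786) and without rdES2-1 (0.84, limma adjusted p = 0.0554). Both calls were lost with the slide as a block, at 0.94 for iPS (limma adjusted p = 0.0802) and 0.78 for ES minus somatic (limma adjusted p = 0.0557). Arrays of 1 slide could be compared directly: on slide 1, the liver iPS line exceeded liver cells by 1.04 and rdES4 exceeded liver cells by 0.97, and on slide 2, rdES2-1 exceeded stomach cells by 0.59. The stomach iPS line, alone on slide 3, exceeded stomach cells by 0.41.

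**Figure D1:**
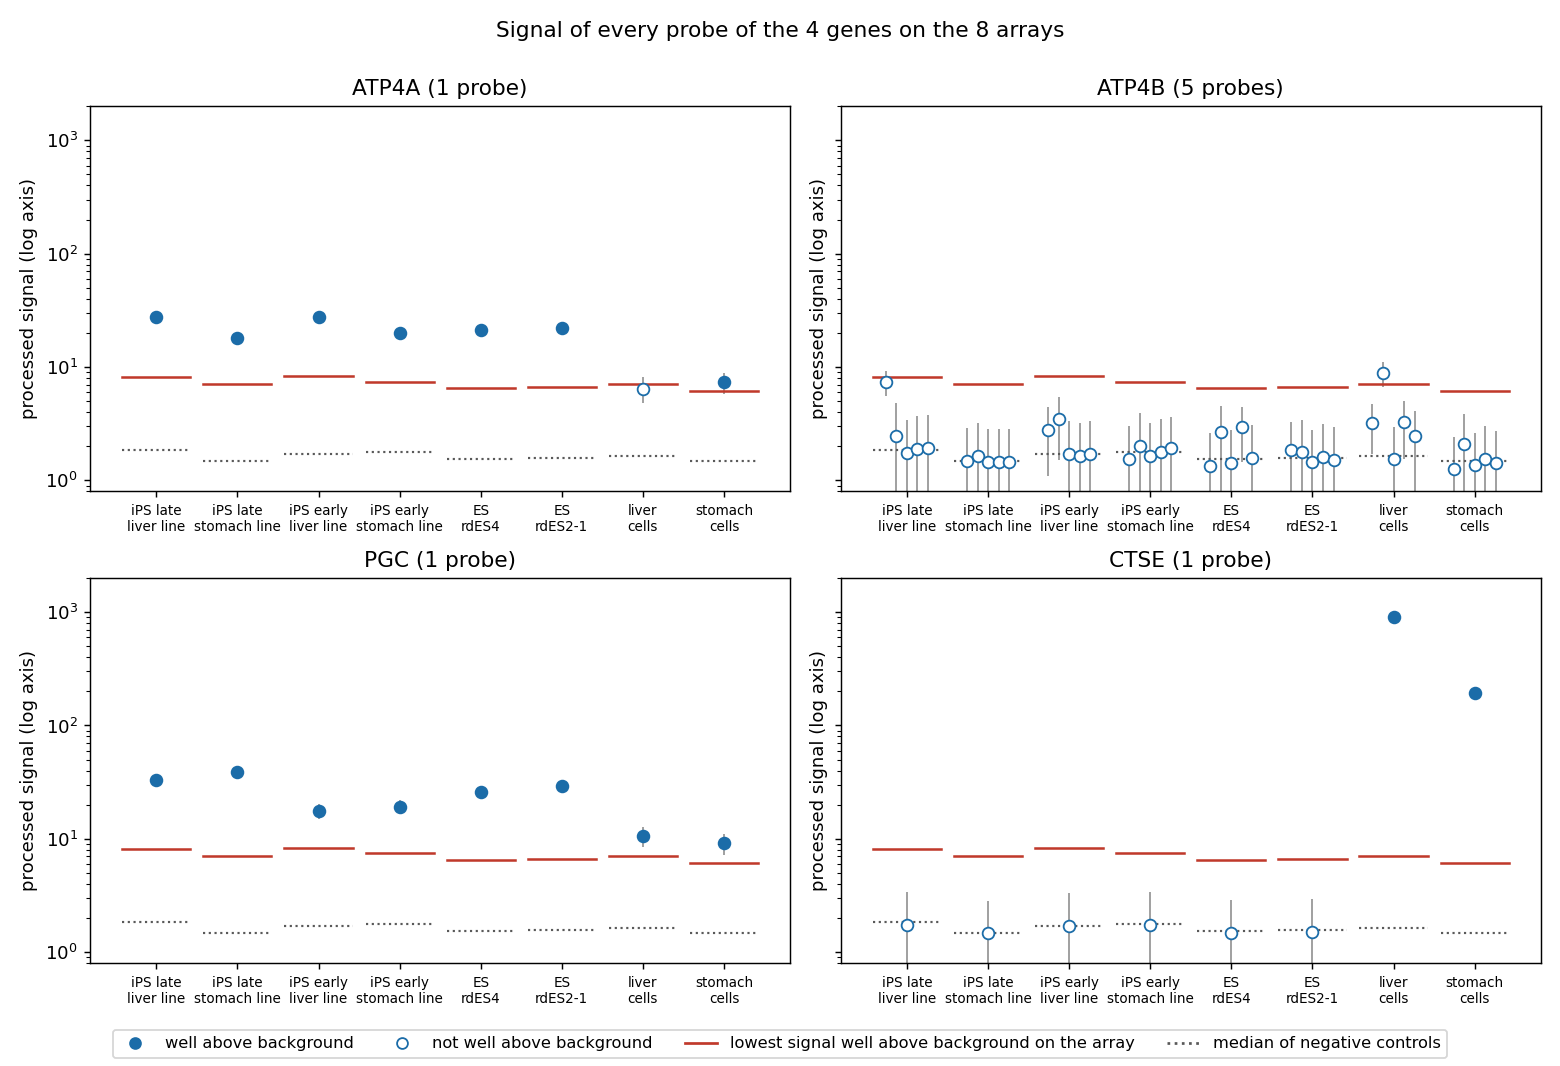
Processed signal (log axis, linear units of brightness) of every probe of the 4 genes on each of the 8 arrays, with bars of ± 1 scanner error that are drawn down to the lower edge where they reach it. Where the error was nearly as large as the signal, both arms of the bar were shortened to just under the signal. Filled points were well above background and open ones were not, red lines mark the lowest signal well above background on that array, and dotted lines the median of 153 negative controls. ATP4A and PGC lie within a narrow dim range, all 40 ATP4B points are open, and CTSE is filled in liver cells (897) and stomach cells (193) only.

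No ATP4B signal was marked as well above background in any sample. The 5 probes gave 40 signals over the 8 arrays, of which 0 were marked as well above background, and the signals ran from 1.25 to 8.84 with a median of 1.72. A total of 37 of the 40 were below 2 times their own scanner error, and 38 were 3.47 or less. The highest were 8.84 ± 2.24 for probe A_04_P001847 in liver cells and 7.43 ± 1.83 for probe A_04_P001846 in the late liver iPS line. The first lay above the lowest signal that was marked as well above background on that array, 7.10, and the second below the 8.11 of its array. In liver cells 4 of the 5 probes exceeded the 95th percentile of the negative controls of that array, 2.12, with signals of 8.84, 3.26, 3.20 and 2.44. On the other arrays this held for 2 probes in the early liver iPS line and in rdES4, for 1 in the late liver iPS line and in stomach cells, and for 0 in the stomach iPS line at either passage and in rdES2-1. On the liver array, 27.7% of all probes were dimmer than the signal of 2.44, so most probes exceeded the cut of 2.12 as well. The count of 4 of 5 therefore does not set ATP4B apart there. ATP4B was not tested, and a level under the limit of the array is not shown to be absent.

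The relatives of the pump were read from a list of 26 P-type ATPase genes and partner subunits, of which 8 had a named probe and 6 were tested. In iPS cells, 4 of the 6 were higher than in somatic cells, 0 were lower and 2 did not pass, with a median difference of 0.63 against 0.015 over all tested probes. Over all tested probes, 66.6% were called in either direction and 34.2% were higher. ATP1B1, the beta subunit of the Na,K-ATPase and a homologue of ATP4B, was higher by 1.30 ± 0.21 (SE, limma adjusted p = 0.00435), and its signal was 1566 to 4753 on the 4 iPS arrays, against 449.6 and 559.7 on the somatic ones. ATP1B3, another beta subunit, was higher by 0.83, the plasma membrane calcium pump ATP2B1 by 0.93 and the sarcoplasmic reticulum calcium pump ATP2A2 by 0.44, while 1 of the 3 tested probes of ATP2B1 had the opposite sign. ATP1B1 and ATP1B3 stayed higher and past the threshold under each of the 6 other scalings and background corrections, whereas ATP2B1 did not pass with normexp at offset 50 and ATP2A2 did not pass with normexp at offset 0. In ES cells, ATP1B1, ATP2B1 and ATP1B3 were higher than in somatic cells by 1.27, 1.09 and 0.95, and the other 3 did not pass. The share of all tested probes called higher in ES cells was 34.2%, and 63.9% were called in either direction. ATP12A, the alpha subunit of the nongastric H,K-ATPase, had 4 probes and 0 of its 32 signals were well above background. ATP1B2 likewise had 0 of its 16 signals well above background.

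Other genes of acid secretion by the parietal cell did not move one way. Of a list of 27, 8 had a named probe and 6 were tested, and in iPS cells 2 were higher than in somatic cells, 3 were lower and 1 did not pass, with a median difference of -0.80, beside 34.2% higher and 32.4% lower over all tested probes. CA4, a membrane-bound carbonic anhydrase, had signals of 29.6 to 151.4 on the 4 iPS arrays and 108.2 and 128.5 on the ES arrays, against 1.51 and 1.60 on the somatic arrays, where it was not well above background. It was at least 5.15-fold higher in iPS and at least 9.72-fold higher in ES than in somatic cells. The fit of its measured levels, not of these bounds, gave a limma adjusted p of 0.00112 for iPS cells. With normexp at offset 50 the iPS difference of 0.37 did not pass. CA4 was tested only because the pluripotent arrays were above background, so this direction was a condition of being tested. SLC4A2, the basolateral chloride/bicarbonate exchanger of parietal cells, was lower by -0.92 in iPS and -0.90 in ES cells, but without scaling between arrays its iPS difference was 0.092 and did not pass. CLCN5, a chloride/proton exchanger of endosomes, was higher by 0.43 in iPS and 0.51 in ES cells, and the iPS difference was -0.43 with normexp at offset 50, where the median of all probes was -0.40. PTH1R, the parathyroid hormone receptor, was lower by -1.48 in iPS cells and did not pass in ES cells (-0.70), while EZR (ezrin), which links membranes to actin, was lower by -1.06 in ES cells and did not pass in iPS cells (-0.68). CLIC6 and CFTR, both chloride channel genes, were not well above background on any array.

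PGC, the zymogen gene, was above background on all 8 arrays. Its signal was 33.0 ± 4.01 in the liver line and 38.6 ± 4.16 in the stomach line of late iPS cells, and 17.6 ± 2.55 in the liver line and 19.2 ± 2.73 in the stomach line of early iPS cells. In ES cells it was 25.8 ± 3.14 in rdES4 and 29.1 ± 3.37 in rdES2-1, and in somatic cells 10.6 ± 2.20 in liver cells and 9.14 ± 1.90 in stomach cells. As signals, late iPS arrays were brightest, ES arrays came next, then early iPS arrays, and somatic arrays last, without overlap. As levels, which allow for the lower 75th percentile of the somatic arrays, the late iPS arrays (-3.37 in the liver line and -2.94 in the stomach line) stayed above the ES lines (-3.41 in both), the first of them narrowly, whereas the early iPS arrays (-4.27 and -3.99) lay around the somatic ones (-3.94 in liver cells and -4.08 in stomach cells).

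PGC was higher in ES than in somatic cells, with levels of -3.41 ± 0.0032 and -4.01 ± 0.095 (SD, n = 2 each), a difference of 0.60 ± 0.17 (SE, 95% interval 0.17 to 1.03), or 1.52-fold, and a limma adjusted p of 0.0275. With both passages averaged, the iPS lines had a level of -3.64 ± 0.25 (SD, n = 2), and the iPS minus somatic difference of 0.37 ± 0.17 (SE, 95% interval -0.063 to 0.80) did not pass (limma adjusted p = 0.107). With normexp at offset 50, under which the median of all probes was -0.33 for ES and -0.40 for iPS minus somatic, PGC was at -0.43 for ES (limma adjusted p = 0.0103) and -0.52 for iPS cells (limma adjusted p = 0.00413). With that correction and no scaling it was at 0.24 for ES (limma adjusted p = 0.0773) and 0.28 for iPS cells (limma adjusted p = 0.0513). With the slide as a block the ES difference of 0.60 did not pass (limma adjusted p = 0.073). Over 17 alternative settings the ES minus somatic difference lay between -0.43 and 1.48 with adjusted p from 0.000892 to 0.685, and 9 settings passed, and over 18 settings the iPS minus somatic difference lay between -0.52 and 1.38 with adjusted p from 0.00109 to 0.686, and 4 passed. The ES call was lost in 5 of the 8 fits that left out an array: without rdES4 (0.60, limma adjusted p = 0.0956), rdES2-1 (0.60, 0.095), the early stomach iPS line (0.60, 0.144), the late liver iPS line (0.60, 0.127) or stomach cells (0.53, 0.081). The iPS minus somatic difference passed without the early liver iPS array (0.59, limma adjusted p = 0.0116), and it was 0.63 without the early stomach iPS array, 0.14 without the late liver iPS array and 0.11 without the late stomach iPS array. On slide 1, rdES4 exceeded liver cells by 0.54 and the liver iPS line exceeded liver cells by 0.12, and on slide 2, rdES2-1 exceeded stomach cells by 0.67.

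**Figure D2:**
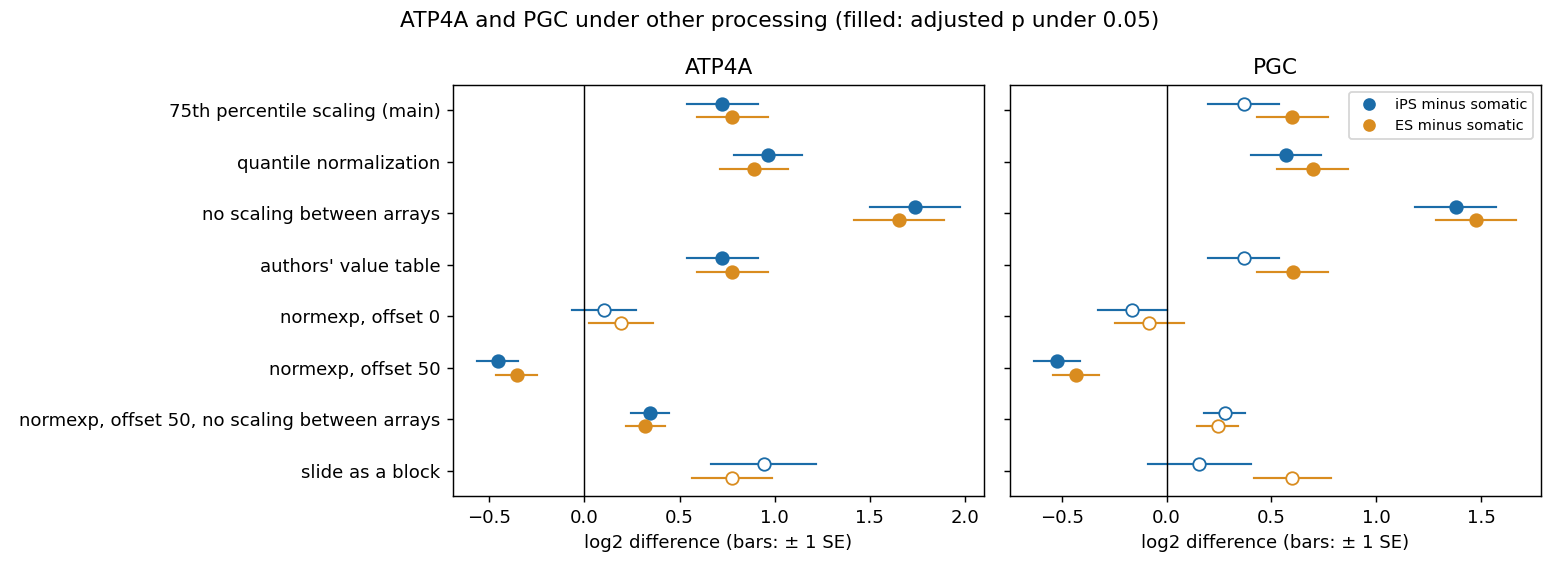
Log2 differences of ATP4A and PGC for iPS minus somatic (blue) and ES minus somatic cells (orange) under 8 ways of processing, with bars of ± 1 SE and filled points where the adjusted p was under 0.05. With normexp at offset 50, all 4 differences are below 0, between -0.52 and -0.36, where the median of all probes was -0.40 for iPS and -0.33 for ES minus somatic, and without scaling between arrays all 4 are highest, between 1.38 and 1.74.

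The pepsinogen relative PGA5, a pepsinogen A gene and the only one of a list of 13 other aspartic protease genes with a named probe, did not follow PGC. It had 2 probes, of which 1 was tested, and its level was -4.38 in the liver line and -4.52 in the stomach line of late iPS cells, -2.88 and -4.24 in early iPS cells, -3.35 and -3.80 in ES cells, and -3.62 in liver cells and -3.27 in stomach cells. The early liver iPS array was highest and the late iPS arrays were lowest. PGA5 differed by -0.56 ± 0.32 (SE) between iPS and somatic cells (limma adjusted p = 0.174) and by -0.13 between ES and somatic cells, and neither passed.

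CTSE gave a bright signal in both somatic cultures and none above background in any pluripotent sample. Its signal was 1.75 and 1.46 in the liver and stomach lines of late iPS cells, 1.71 and 1.74 in those of early iPS cells, and 1.47 and 1.51 in rdES4 and rdES2-1. In liver cells it was 897 ± 89.7 and in stomach cells 193 ± 19.3. Between 20.3% and 56.2% of the negative control probes were dimmer than CTSE on the pluripotent arrays, so its signal there lay among them. Averaged per group, the measured level was -7.59 ± 0.046 in iPS lines and -7.61 ± 0.099 in ES lines, against 1.39 ± 1.51 in somatic cells (SD, n = 2 each). The fit of these measured levels gave a limma adjusted p of 0.000437 for iPS and 0.000435 for ES minus somatic cells. It rests on background signals in the pluripotent cells and does not test the bounds that follow. CTSE was at least 108.7-fold lower in iPS and at least 115.7-fold lower in ES than in somatic cells. These bounds set the mean somatic level against the mean, per pluripotent array, of the higher of the CTSE signal and the lowest signal well above background. Array by array, the bound was 225.4-fold to 255.6-fold against liver cells and 51.3-fold to 58.2-fold against stomach cells over the 6 pluripotent arrays. CTSE entered the tests only because both somatic arrays were above background, so a difference in this direction was a condition of being tested. As a description, 99.7% of the tested probes had a smaller fitted difference. The limma call held in each of 17 alternatives for iPS cells and 16 for ES cells, with fitted differences of -3.18 or lower for iPS and -3.13 or lower for ES cells. Apart from the fit with no filter on dim probes, these alternatives kept the same condition of being tested. A held call is therefore not separate support for the direction.

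Cathepsin E is also made by antigen-presenting cells, and markers of other cell types were read beside it. Of 8 immune markers, 3 had a named probe and their summed signal was 32.9 to 36.1 on iPS arrays and 29.6 and 66.0 on ES arrays, against 85.3 and 186.5 on somatic arrays. CD14, a monocyte and macrophage receptor, had a signal of 181.3 in liver cells and 81.2 in stomach cells. It was lower in iPS than in somatic cells by -3.28 and in ES than in somatic cells by -3.30. MGP, CAV1, ACTA2, TPM1, TPM2 and CALD1, fibroblast or smooth muscle markers, were likewise brighter in liver than in stomach cells, as CTSE was. The fibroblast markers DCN and MMP2 were brighter in stomach cells. CD3E and CD4, defining markers of T cells, were not well above background in either somatic culture. All 4 tested fibroblast markers (DCN, MGP, MMP2 and CAV1) and all 4 tested smooth muscle markers were lower in both pluripotent groups than in somatic cells. Over all tested probes, 32.4% were lower in iPS and 29.7% in ES cells. DCN and TPM2 were tested only through the somatic arrays. Summed fibroblast signals were 617 to 1069 in iPS and 583 and 605 in ES cells, against 16353 and 32396 in somatic cells. Summed smooth muscle signals were 9498 to 16801 in iPS cells and 7839 and 9811 in ES cells. In somatic cells they were 15174 and 41500, so the iPS and somatic ranges overlapped as signals. These sums were not scaled between arrays, and the 75th percentile was 154.4 and 163.4 on somatic arrays, against 273.8 to 341.0 on pluripotent ones. Whether scaled sums overlap was not computed. Of 9 markers of simple epithelium, only CLDN1 (claudin-1) had a named probe, and it was not well above background in liver or stomach cells. The part of these cell types in the CTSE difference was not tested. Among genes of the compartments in which cathepsin E works, CTSK, a lysosomal cysteine protease, was lower by -4.74 in iPS and -4.21 in ES than in somatic cells, and CD63, a membrane protein of late endosomes, by -2.62 and -2.49. ATP6V1D, a subunit of the V-type proton pump that acidifies endosomes, was lower by -0.60 in ES cells and did not pass in iPS cells (-0.30).

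The culture labelled stomach did not stand above the culture labelled liver for any of these genes by more than the scanner error. These are differences between 1 array of each and carry no test. ATP4A differed by -0.26 (liver minus stomach cells, scanner error 0.48) and PGC by 0.13 (scanner error 0.42), both less than that error. CTSE was 2.14 higher in liver than in stomach cells (scanner error 0.20), or 4.39-fold, and 97.5% of tested probes had a smaller difference between these cultures. KLF5, the only one of 15 gastric endoderm factors with a named probe, had levels of -3.55 in liver cells and -3.93 in stomach cells.

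The tissue of origin of the iPS lines could be read only as 1 line of each. ATP4A was higher in the liver line than in the stomach line at both passages, with levels of -3.64 and -4.05 late and -3.61 and -3.92 early. PGC went the other way at both passages, with -3.37 in the liver line and -2.94 in the stomach line late, and -4.27 and -3.99 early. Averaged over passages, the liver line exceeded the stomach line by 0.36 for ATP4A and differed from it by -0.35 for PGC, and with 1 line of each origin neither difference could be tested. Both arrays of the liver line were on slide 1 and both of the stomach line on slide 3. Line and slide therefore cannot be told apart, and the passages do not repeat the comparison on separate slides.

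Between iPS and ES cells none of the genes passed. At the array level, 0% of the 28855 probes were called by limma in this comparison, while 2135 had an unadjusted p under 0.05. ATP4A differed by -0.052 ± 0.19 (SE, 95% interval -0.53 to 0.43, limma adjusted p = 0.98), and PGC by -0.23 ± 0.17 (SE, 95% interval -0.66 to 0.20, limma adjusted p = 0.821). No CTSE or ATP4B signal was marked as well above background on these 6 arrays, so no difference is given for them. None of the tested genes in the lists of pump relatives, acid secretion, aspartic proteases or endosomes passed in this comparison or between passages.

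**Figure D3:**
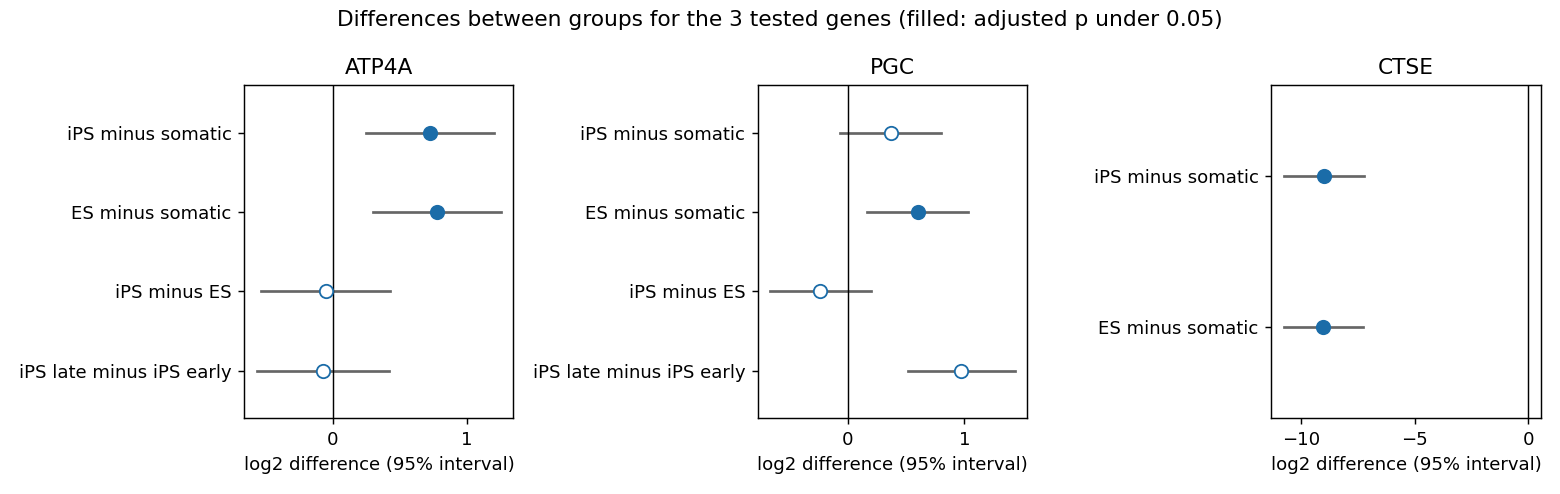
Log2 differences between groups with 95% intervals for the 3 tested genes, each panel on its own scale. ATP4A and PGC differences against somatic cells lie between 0.37 and 0.78, PGC is 0.97 higher late than early, and the CTSE panel shows 2 fitted differences near -8.98, which rest on background signals in iPS and ES cells.

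Between late and early iPS cells, PGC had the same direction in both lines. Its level was higher late than early in both lines, by 0.90 in the liver line (1.87-fold, scanner error 0.27) and by 1.05 in the stomach line (2.06-fold, scanner error 0.26), and the late and early values did not overlap. Late iPS cells averaged -3.16 ± 0.30 and early iPS cells -4.13 ± 0.20 (SD, n = 2 lines each). The difference of 0.97 ± 0.19 (SE, 95% interval 0.52 to 1.43), or 1.97-fold, had an unadjusted p of 0.00195 in limma and an adjusted p of 0.368, and so did not pass over all probes. With the line as a block, since the same lines were sampled at both passages, the limma adjusted p was 0.233. Over 18 alternatives the difference kept its direction, between 0.27 and 1.19, and none passed, with adjusted p from 0.233 to 1. In this comparison 0.0277% of the probes were called, 0.00693% higher and 0.0208% lower in late cells, and 95.2% had a smaller difference than PGC. A level higher late than early by at least 0.90 in both lines was seen in 333 of the 28855 probes (1.15%), and one lower by that size in both lines in 430 (1.49%), so PGC was 1 of 333 probes with such a difference upward. ATP4A differed by -0.075 ± 0.20 (SE, 95% interval -0.57 to 0.42, limma adjusted p = 0.969), with -0.027 in the liver line and -0.12 in the stomach line. PGA5 differed by -0.89 (limma adjusted p = 0.651).

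**Figure D4:**
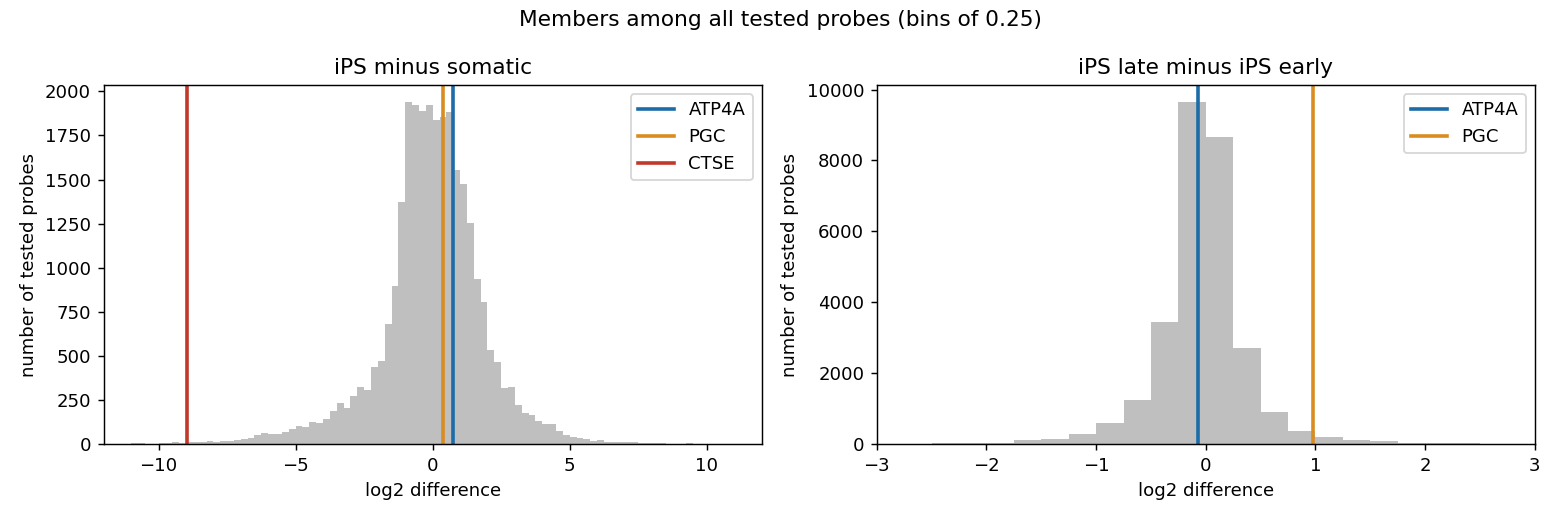
Number of tested probes by log2 difference in bins of 0.25 for iPS minus somatic and iPS late minus early, with coloured lines at the values of the tested genes. ATP4A (0.73) and PGC (0.37) lie in the centre of the first distribution and CTSE (-8.98) at its lower edge, while in the second ATP4A (-0.075) is central and PGC (0.97) is on the upper flank.

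The genes whose levels followed each of these most closely over the 8 arrays were taken from the 511 other tested genes with a symbol, as a description. For ATP4A they were PPP1R2 (r = 0.947), an inhibitor of protein phosphatase 1, SORL1 (0.946), an endosomal sorting receptor, and CCT6A (0.939), a subunit of the cytosolic chaperonin, where the median gene had r = -0.559. For PGC they were TPMT (0.860), ITGB8 (0.850), an integrin subunit, and FGFR2 (0.832), a fibroblast growth factor receptor, with a median of -0.293. For CTSE they were ST3GAL4 (0.998), a sialyltransferase, CCL2 (0.996), a monocyte-attracting chemokine, and MSR1 (0.995), a macrophage scavenger receptor, with a median of 0.624. All of these correlations share the same 8 arrays, in which the 2 somatic cultures stand apart from the 6 pluripotent samples, and a gene at background in all pluripotent samples is ordered almost entirely by the somatic values.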

How the data were processed

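Total RNA of 8 cultures was hybridised on 1 one-colour array each. The deposited array files held intensities, per the file headers, from Agilent Feature Extraction 10.5.1.1, already background-subtracted and not scaled between arrays. The deposited series table held log2 values. It matched the levels used here after centring each probe on its median over the arrays (r of at least 0.999999 on each array, column medians from -0.042 to 0.342), which settled its scale, centring and direction, and it served as an alternative.

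The level was log2(intensity) minus the 75th percentile of the array over non-control probes. Of 45220 spots, 1417 were controls, 44 marked as outliers were left out, which removed 19 probes, and 0 were saturated. Spots of one probe were averaged. Probes well above background on both arrays of at least 1 group were tested, which left 28855, with 22112 above background on all 8 arrays. Symbols came from a RefSeq gene table (assembly mOryCun1.1, names only), which named 1932 probes. A genome build is not given in the sources used here, so no coordinates are printed.

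Group differences came from limma 3.58.1, run in R 4.3.3 (two-sided, Benjamini-Hochberg over all tested probes, threshold 0.05 on the adjusted p). Against ES and somatic cells, each iPS line entered as the mean of its passages, so n counts lines. For passages all 8 arrays were fitted in 4 groups. The same lines were sampled at each passage per the labels, and deviations of early and late arrays of a line from their group means correlated at 0.224 over 28855 probes, so the line was fitted as a block as an alternative. The fit was tested on simulated data. The 13 gene lists held 183 symbols, of which 45 had a named probe and 34 were tested. For a list gene with several probes, the brightest stood for it. Named genes were the 4 genes themselves, the 3 most correlated with each, and list genes with a named probe, of which some are counted but not reported here by name. Members and lists were chosen with earlier results of these data known. Other scaling, background correction, filters, slide and left-out arrays were tried. The number of arrays limits the precision. The array files held no mean signal column, so normexp used the median signal and median background.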

Additional observations from a re-analysis of the deposited data

Results flagged for a closer look

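PGC in early iPS cells lay on opposite sides of the cells each line was made from. The early liver line was lower than liver cells by -0.33 on the log2 scale (scanner error 0.36), and the early stomach line was higher than stomach cells by 0.090 (scanner error 0.36). Both differences are within the scanner error of a single pair of arrays, and the difference between them was not tested, since each side is 1 array. In late iPS cells both lines were higher than their own tissue's cells, by 0.58 for liver (scanner error 0.35) and 1.13 for stomach (scanner error 0.34).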

How the results depend on the processing

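Of 257 values recomputed under alternatives, 206 kept direction and side of the threshold, or stayed within the spread or within 1.5 times for counts. CTSE against somatic cells did so in every alternative run. The cause of the changes below was not tested. With normexp at offset 50, the iPS minus somatic differences were -0.45 for ATP4A and -0.52 for PGC, the ES minus somatic ones -0.36 and -0.43, ATP4A late minus early was 0.0016, and CTSE liver minus stomach was 1.90. With normexp at offset 0, chosen after seeing the data, iPS minus somatic was 0.10 for ATP4A and -0.16 for PGC, ES minus somatic 0.19 and -0.083, and 1 probe was called between passages. With normexp at offset 50 and no scaling, also chosen after seeing the data, PGC was 0.24 for ES minus somatic and 0.033 for iPS minus ES, ATP4A 0.026 for iPS minus ES, and 0 probes were called between passages. With quantile normalization, PGC iPS minus somatic was 0.57 and ATP4A iPS minus ES was 0.073. Without scaling, these were 1.38 and 0.084, and 2 probes were called between iPS and ES cells. With the slide as a block, where iPS values rest on the liver line because slide 3 held only the stomach line, ATP4A was 0.94 for iPS minus somatic, 0.78 for ES minus somatic and 0.16 for iPS minus ES, PGC was 0.60 for ES minus somatic, the calls of ATP4A and PGC were lost (limma adjusted p = 0.0802, 0.0557 and 0.073 in the order of the differences against somatic cells), 9916 probes were called between iPS and somatic cells, and 0 between passages.

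Between passages, 8 probes were called, and 0 with no filter on dim probes, with only probes above background on all 8 arrays, or with the replicate block of the paired lines, where PGC was 0.97 (limma adjusted p = 0.233). The block changed no call of a gene named here. Without 1 array at a time, iPS minus somatic ran from 0.59 to 0.86 for ATP4A, 0.11 to 0.63 for PGC and -10.05 to -7.91 for CTSE, and ES minus somatic from 0.65 to 0.91, 0.53 to 0.67 and -10.07 to -7.93. In those fits iPS minus ES ran from -0.11 to 0.0074 for ATP4A and -0.49 to 0.029 for PGC, and late minus early from -0.28 to 0.13 and 0.76 to 1.19. Probes called ran from 18321 to 19243, 14975 to 18469, 0 to 0 and 0 to 1 over the same comparisons. A lone array was assumed to vary like the other groups.

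Of the probes called between iPS and somatic cells, 51.3% were higher in iPS cells, against 33.1% with normexp at offset 50, 82.5% without scaling and 38.6% without the filter. The median difference of all probes, 0.015, became -0.40 with normexp at offset 50, -0.19 at offset 0, 0.11 with quantile normalization and 1.03 without scaling. Without the filter, 2 of the 5 ATP4B probes were called lower in iPS cells, by -0.83 (A_04_P001848) and -1.10 (A_04_P001850). The same 2 were called lower in ES cells, by -0.88 and -1.14. Of the signals behind these calls, 0 were marked as well above background. In that fit 15119 of all 43584 probes were called lower in iPS cells, with a median difference of -0.47. For ES cells these values were 14517 and -0.36. The count of 2 of 5 therefore does not set ATP4B apart. Signals of A_04_P001848 ran only from 1.36 to 1.73 over all 8 arrays. The part of the scaling in its difference was not tested. Averaging probes per gene could give no other value, as each tested gene had 1 tested probe, and requiring all 8 arrays above background left no value for ATP4A or CTSE. Dim spots limit ATP4A and PGC, and for ATP4B and pluripotent CTSE only a bound exists.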

Other observations

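Among the genes read as markers of the cultures, transferrin (TF), a plasma iron carrier of hepatocytes, was higher in iPS than in somatic cells by 2.95 ± 0.43 (SE) and in ES than in somatic cells by 4.05 ± 0.43. Retinol-binding protein 4 (RBP4) was lower in iPS than in somatic cells by -3.15 ± 0.62 (SE) and in ES than in somatic cells by -3.65 ± 0.62. The other 3 tested genes of the hepatocyte list, APOE, HP and HPX, did not pass in either comparison. The shares over all tested probes were 34.2% higher and 32.4% lower in iPS cells, and 34.2% higher and 29.7% lower in ES cells. The summed signal of the 7 named hepatocyte genes was 1088 to 1352 in iPS cells and 1361 and 1626 in ES cells. It was 762 in liver cells and 3090 in stomach cells, a range that spans both, with the culture labelled liver the lower.

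KLF5, a factor of gut epithelium that pluripotent cells also express, had signals between 8.32 and 28.5 on iPS arrays and 11.8 and 13.1 on ES arrays, against 10.2 and 14.0 on somatic arrays, and its difference of -0.84 between iPS and somatic cells did not pass (limma adjusted p = 0.0568), with 1 of its 4 tested probes of opposite sign.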
